A study of Homo sapiens with 6 samples.

Results

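The Polo-like kinase genes PLK1, PLK2, PLK3 and PLK4 were followed through RNA sequencing of KYSE510, an established human line of oesophageal squamous cell carcinoma. Reduction of the ribonuclease that the labels call RNH1 was meant there as a model of induced R-loops, which are RNA:DNA hybrids with a displaced DNA strand. The knockdown cells carried an shRNA against RNH1 (shRNH1, labelled RNH1 knockdown) and the control cells a control shRNA (shControl, labelled WT), with 3 libraries each and the same medium with serum. The 4 genes are 4 of 62700 Ensembl gene IDs in the count table, each matched by 1 ID. They were chosen by name as a gene family, when their fold changes between shRNH1 and shControl in these same libraries were already known. The differences between the groups are therefore descriptions for the 4 genes: their intervals and their calls in the fit over all genes are given, and nothing is inferred from them.

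Polo-like kinases are serine/threonine kinases that dock on their substrates through a carboxy-terminal polo-box region. PLK1 drives mitotic entry, centrosome maturation, chromosome attachment and cytokinesis, and its gene is transcribed mainly in late cell cycle. PLK4 starts the assembly of a new centriole. PLK2 and PLK3 are better known as early-response genes, induced by serum, growth factors and stress. A further relative, PLK5, lacks a full kinase domain in humans.

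Stretches of the 4 promoters are shown first, to show which letters of known cell cycle and early-response elements each member carries. They come from RefSeq (GRCh38.p14), run 5′ to 3′ along the gene, and are PLK1 chr16:23678779-23678878 (plus strand), PLK2 chr5:58460097-58460196 (minus strand), PLK3 chr1:44800217-44800316 (plus strand) and PLK4 chr4:127880798-127880897 (plus strand). Capitals mark the letters searched for, other than the GC box.
PLK1: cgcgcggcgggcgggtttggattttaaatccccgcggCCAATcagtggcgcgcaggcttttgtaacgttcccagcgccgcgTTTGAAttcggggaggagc
PLK2: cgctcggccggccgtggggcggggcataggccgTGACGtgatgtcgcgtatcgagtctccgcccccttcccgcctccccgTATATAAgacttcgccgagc
PLK3: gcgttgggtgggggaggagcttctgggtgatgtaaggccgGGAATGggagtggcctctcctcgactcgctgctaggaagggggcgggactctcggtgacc
PLK4: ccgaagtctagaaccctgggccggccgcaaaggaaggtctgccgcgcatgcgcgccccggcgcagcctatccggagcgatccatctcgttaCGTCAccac

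Each search covered 250 bases before to 50 bases after the RefSeq start, on both strands, in 35116 RefSeq windows of that length. The gene spans given below come from GENCODE 29, and the PLK1 and PLK2 stretches lie within them. RefSeq and GENCODE thus place these starts differently, and every distance to a start in this paragraph is to that of RefSeq. The PLK1 window held TTTGAA, the letters of the cell cycle genes homology region (CHR) of G2/M genes, 29 bases before the start, and a CCAAT box 73 bases before it. TTTGAA occurred in 15.2% of all windows and CCAAT in 34.6%. The PLK2 window held TATATAA, letters that position RNA polymerase II, 30 bases before the start, and TGACG, which is one side of a cyclic AMP response element (CRE), 77 bases before it. Either TATATAA or the variant TATAAA occurred in 12.6% of windows and TGACG in 24.6%. The PLK3 window held GGAATG, the core letters bound by TEAD factors, 120 bases before the start, as did 14% of windows. The table has 3 windows for PLK4, of which the first was read, and it held TGACG on the opposite strand 4 bases before the start and TTTGAA on the opposite strand 38 bases after it. All 4 windows held a GC box (GGGCGG), as did 45.0% of all windows. The full CRE, TGACGTCA, which contains TGACG, was in 0 of the 4 windows and in 1.85% of all. The AP-1 letters, either TGACTCA or the variant TGAGTCA, were in 0 of the 4 and in 4.95% of all. The E2F letters, either TTTGGCGC or the variant TTTCGCGC, were in 0 of the 4 and in 1.15% of all. These are matches of letters, not binding sites.

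Library totals ran from 31394687 to 33421217 counts in shRNH1 and from 40225486 to 41103220 in shControl, so depth went with the group. The shRNH1 libraries are the only knockdown group, in the only cell line. Other effects of that shRNA therefore cannot be told apart from loss of its target. The knockdown was checked on RNASEH1, the enzyme that cleaves RNA in RNA:DNA hybrids, which averaged 7.16 ± 0.213 depth-scaled counts (CPM, TMM-normalised) in shRNH1 and 31.6 ± 3.73 CPM in shControl (SD, n = 3 each). The ribonuclease inhibitor gene that carries the approved symbol RNH1 averaged 478 ± 45.5 CPM in shRNH1 and 546 ± 97.4 CPM in shControl (SD, n = 3 each), and it was not called (log2 fold change -0.19; adjusted p = 0.221, edgeR's quasi-likelihood test). Among squamous markers all 10 were at a testable level, with 4 called higher and 3 lower. The 3 lower were the keratin genes KRT6A (log2 fold change -2.13), KRT14 (-1.396) and KRT5 (-1.33). The 4 higher were SOX2 (2.68), DSC3 (1.11), PERP (0.54) and PKP1. PKP1 was low in both groups, at 0.459 CPM in shRNH1 and 0.0252 CPM in shControl. TP63 (-0.02), KRT17 (0.02) and DSG3 (-0.08) were not called. Leukocyte markers had 2 of 7 at a testable level, and the 7 summed to 7.36 to 9.63 CPM in shRNH1 and 5.52 to 7.05 CPM in shControl. ITGAM was called higher, at 0.757 CPM in shRNH1 and 0.154 CPM in shControl, and CSF1R was not called. Fibroblast markers had 2 of 7 at a testable level, with 3 at 0 in every library, and summed to 110 to 133 CPM in shRNH1 and 62.5 to 71.8 CPM in shControl. Nearly all of that sum was COL1A1, called higher, at a mean of 123 CPM in shRNH1 and 62.5 CPM in shControl. PDGFRB, the other testable one, was called lower, at 1.83 CPM in shRNH1 and 3.44 CPM in shControl. Endothelial markers had 4 of 6 at a testable level and summed to 21.3 to 22.6 CPM in shRNH1 and 21.8 to 24.2 CPM in shControl. Of these 4 only PECAM1 was called, higher, at 6.29 CPM in shRNH1 and 4.43 CPM in shControl. Simple epithelial markers summed to 4759 to 4975 CPM in shRNH1 and 6367 to 8242 CPM in shControl, mostly keratins 8, 18 and 19. Of 6 tested, 3 were called lower: KRT18 (log2 fold change -0.92), KRT8 (-0.56) and MUC2 (-0.99). Another 2, HNF4A (1.34) and VIL1 (2.32), were called higher, against the direction of the sum. The part of these marker shifts in the results below was not tested, and in bulk RNA a change in the share of cells cannot be told apart from a change per cell.

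PLK2 stood at 24.8% and PLK3 at 64.3% of the control level in shRNH1, and PLK1 and PLK4 lay at nearly the same level in both groups. At the call rule used for all genes (edgeR's quasi-likelihood test, adjusted p under 0.05) PLK2 and PLK3, 2 of the 4 members, fell among the called genes, both lower. All 4 passed the filter on low counts. Of the 19682 genes tested, 27.6% were called, 15.3% higher and 12.3% lower in shRNH1. The family was picked with this contrast known, so these calls are no test of the members and nothing is read from their count. Groups did not overlap for the same 2 members, and for 40.0% of all genes tested.

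PLK2 (ENSG00000145632; GRCh38 chromosome 5, 58453982 to 58460260, minus strand) had 765, 835 and 732 counts in the shRNH1 libraries and 3329, 3600 and 3827 counts in the shControl libraries. These are 22.5, 23.7 and 22.2 CPM in shRNH1, against 85.4, 87.0 and 104 CPM in shControl. The shRNH1 libraries lay close together, and the highest of them was 1.85 log2 units under the lowest shControl library. The spread was wider in shControl, with a coefficient of variation of 11.0% against 3.64% in shRNH1. The log2 fold change was -2.01 (SE 0.101). The fitted 24.8% of control had a 95% interval of 21.5% to 28.6%. A more negative log2 fold change than that of PLK2 was found for 59 of 19682 genes, and for 13 of 10945 with a mean of at least 4 CPM. This rank restates the fold change known when the family was chosen. RNASEH1 itself stood at 22.6% of control (95% interval 19.2% to 26.7%).

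PLK3 (ENSG00000173846; chromosome 1, 44800225 to 44805990, plus strand) had 695, 706 and 629 counts in shRNH1 and 1084, 1301 and 1234 counts in shControl. In CPM this was 20.5, 20.1 and 19.0 in shRNH1, against 27.8, 31.4 and 33.5 in shControl. All 3 shRNH1 libraries were lower than every shControl library, by at least 0.44 log2 units. The log2 fold change was -0.64 (SE 0.102), or 64.3% of control (95% interval 55.6% to 74.4%). Its 95% interval on the log2 scale was -0.85 to -0.43, and that of PLK2 was -2.22 to -1.81. The 3′ end of PLK3 shares 78 bases with DYNLT4, a dynein light chain gene on the opposite strand, which had 34 to 87 counts in shRNH1 and 95 to 128 counts in shControl. No source states whether counting used strand, so reads of that stretch cannot be told apart.

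PLK1 (ENSG00000166851; chromosome 16, 23677656 to 23690367, plus strand) had 11399, 10027 and 10483 counts in shRNH1 and 11818, 12277 and 11208 counts in shControl. The values were 336, 285 and 317 CPM in shRNH1, against 303, 297 and 304 CPM in shControl. The shControl libraries all lay inside the range of the shRNH1 libraries. The log2 fold change was 0.05 (SE 0.0937), with a 95% interval of 90.9% to 119% of control. PLK1 overlaps an antisense gene over 553 exon bases and ERN2 over 42, and these had at most 11 and 31 counts in any library. With the counter and strand setting unknown, the effect of the overlap on the PLK1 counts cannot be told.

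PLK4 (ENSG00000142731; chromosome 4, 127880861 to 127899195, plus strand) had 509, 487 and 460 counts in shRNH1 and 456, 631 and 509 counts in shControl. In CPM these were 15.0, 13.8 and 13.9 in shRNH1, against 11.7, 15.2 and 13.8 in shControl, and the groups overlapped. The shControl libraries held both the lowest and the highest value of PLK4. The log2 fold change was 0.07 (SE 0.117; 95% interval 88.9% to 124% of control), and it was -0.03 without shControl replicate 1. PLK5 (ENSG00000185988), the relative outside the 4, had 15, 16 and 6 counts in shRNH1 and 7, 6 and 12 counts in shControl, too few to describe a difference.

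**Figure D1:**
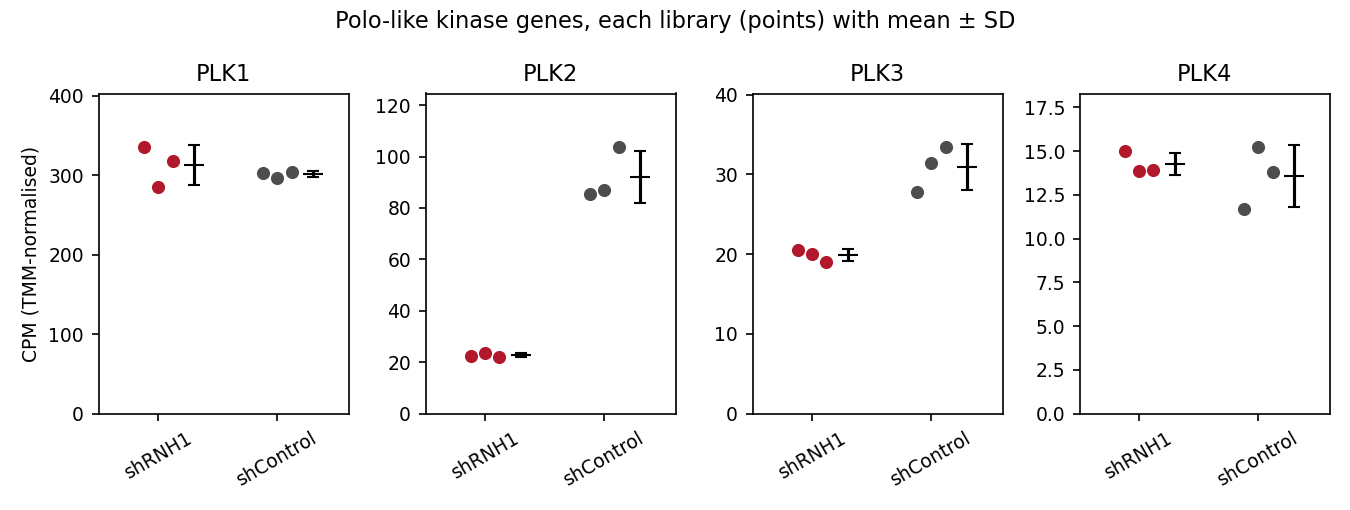
TMM-normalised CPM of the 4 Polo-like kinase genes in each library (points), with the mean and SD (bars, n = 3) beside them, for shRNH1 on the left and shControl on the right of each panel; each axis starts at 0. PLK2 sits at 22.2 to 23.7 CPM in shRNH1 and 85.4 to 104 CPM in shControl, PLK3 separates by less, and PLK1 and PLK4 overlap.

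The levels of the 4 genes were set side by side per kilobase of exon. They hold the same difference between the groups and are likewise a description. PLK1 was highest in every library, at 65.7 ± 5.38 CPM per kb in shRNH1 and 63.3 ± 0.842 CPM per kb in shControl (SD, n = 3 each). PLK2 measured 4.78 ± 0.174 CPM per kb in shRNH1 and 19.3 ± 2.13 in shControl. PLK3 measured 5.71 ± 0.212 CPM per kb in shRNH1 and 8.88 ± 0.822 in shControl. PLK4 was lowest, at 3.18 ± 0.143 CPM per kb in shRNH1 and 3.03 ± 0.398 in shControl.

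PLK1 exceeded PLK2 in 6 of 6 libraries, by 13.7-fold in shRNH1 and 3.29-fold in shControl. PLK3 exceeded PLK4 in 6 of 6 libraries, by 1.80-fold in shRNH1 and 2.94-fold in shControl. PLK2 and PLK3 kept no common order over the 6 libraries. PLK2 was 0.838 of PLK3 in shRNH1, and 2.17-fold above it in shControl, with no overlap of ranges in either group. The place of PLK2 and PLK3 in shRNH1 depended on the length used, since per kilobase of the longest transcript PLK2 ranged from 7.49 to 8.02 and PLK3 from 7.64 to 8.21, which overlap. PLK1 made up 82.7% of the summed CPM per kb of the 4 genes in shRNH1 and 67% in shControl, while PLK2 made up 6.05% in shRNH1 and 20.4% in shControl.

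**Figure D2:**
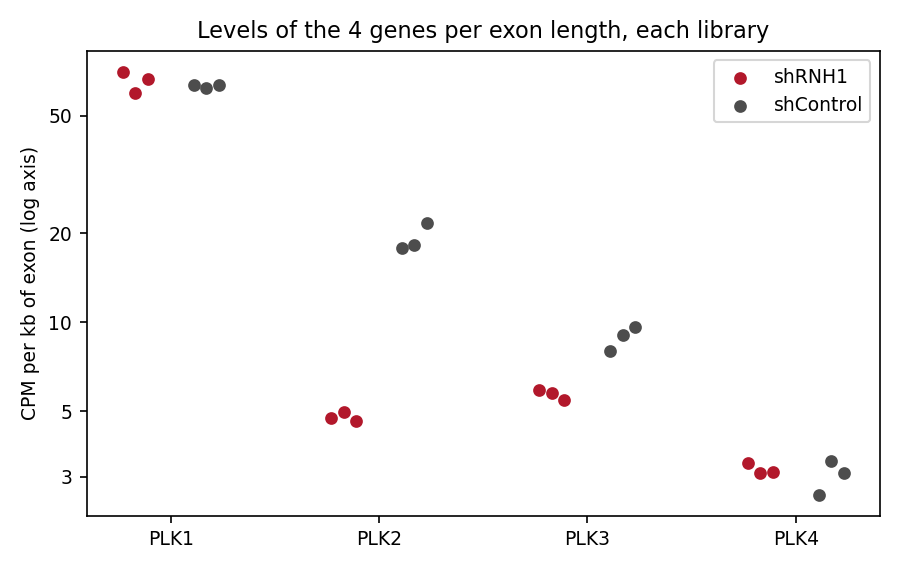
CPM per kb of exon on a log axis for the 4 genes, 1 point per library, shRNH1 (red, left) and shControl (grey, right). PLK1 is highest in all 6 libraries and PLK4 lowest, while PLK2 lies above PLK3 in shControl, at 17.9 to 21.8 against 8.0 to 9.62, and below it in shRNH1, at 4.65 to 4.98 against 5.47 to 5.88.

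PLK2 and PLK3 were set beside a list of immediate early and growth-factor response genes. Of 30 tested members, 14 fell and 4 rose, that is 60.0% called against 27.6% of all genes, and the median log2 fold change was -0.28 against 0.016 over all genes. The list, like those below, was chosen with earlier results of these data known, so its share is a description and no test. CCN1, a secreted matricellular protein, fell to 53.1 ± 1.82 CPM in shRNH1, against 279 ± 33.5 CPM in shControl (SD, n = 3 each). The log2 fold change of CCN1 was -2.39 (edgeR's quasi-likelihood test, adjusted p = 1.36e-15). FOSL1, an AP-1 subunit, fell too (-1.44 on the log2 scale, adjusted p = 2.34e-11, edgeR). So did CCN2, a relative of CCN1 (-2.33, adjusted p = 2.69e-09, edgeR), and SPRY4, a feedback inhibitor of receptor tyrosine kinase signalling (-0.96, adjusted p = 6.41e-09, edgeR). Not all members moved that way: the list held rises of NR4A2 (1.22), FOS (0.55), ZFP36 (0.36) and NR4A1 (0.33), and EGR1 (-0.30), JUNB (-0.02) and KLF10 (0.01) did not pass. PLK2, at -2.01, had 2 of the 30 below it, CCN1 and CCN2, and PLK3, at -0.64, had 7 below it.

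Reported substrates of PLK2 or PLK3 had 2 of 13 higher and 2 lower, at a median of 0.005, and 30.8% were called, close to the 27.6% of all genes. The checkpoint kinase gene CHEK2 rose to 29 ± 0.998 CPM in shRNH1, against 18.7 ± 1.79 CPM in shControl (log2 fold change 0.63; adjusted p = 3.21e-05, edgeR's quasi-likelihood test; SD, n = 3 each). SIPA1L1, a synaptic scaffold that PLK2 marks for breakdown in rat neurons, fell (-0.46, adjusted p = 3.43e-04, edgeR), and so did the AP-1 subunit JUN (-0.48, adjusted p = 0.00430, edgeR). Leaving out the first shRNH1 library cost JUN its call (-0.38, with edgeR's adjusted p = 0.0700). HIF1A (-0.15) and NPM1 (-0.08) did not pass.

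PLK1 was compared with its partners and with the transcription programme of G2 and mitosis to which it belongs. Of 28 activators, docking partners and substrates, 6 fell and 2 rose, at a median log2 fold change of -0.15, and 28.6% were called, close to the 27.6% of all genes. The share was close but the direction was not: over all genes 15.3% were called higher and 12.3% lower. Cyclin B1 (CCNB1) fell (-0.43, with edgeR's adjusted p = 0.00100), and so did AURKA, the kinase that activates PLK1 (-0.37, adjusted p = 0.00263, edgeR). CDC25B, a phosphatase of mitotic entry (-0.36, adjusted p = 0.00533, edgeR), and KIF23, a motor of the central spindle (-0.35, adjusted p = 0.00583, edgeR), fell as well. CDK1 (0.31) and the cytokinesis protein ANLN (0.31) rose, while BORA (-0.23), TPX2 (-0.17) and BUB1 (-0.20) did not pass. With library size alone 3 rose and 3 fell, and with an offset for expression level 3 rose and 4 fell. The offset cost CDC25B its call (-0.21, adjusted p = 0.118, edgeR), and library size alone did so for KIF23 (-0.24, adjusted p = 0.0724, edgeR). Without shRNH1 replicate 3 the list had 0 higher and 5 lower, against 8 called in all.

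In the G2/M list of 38 genes, which shares CCNB1, AURKA, CDK1 and BUB1 with the partners, 8 fell and 2 rose, at a median of -0.12. In all 26.3% were called, close to the 27.6% of all genes, but with more falls than rises, where all genes had 15.3% higher and 12.3% lower. CDC20, the activator of the anaphase-promoting complex, fell to 466 ± 32.7 CPM in shRNH1, against 732 ± 113 CPM in shControl (SD, n = 3 each), a log2 fold change of -0.65 (with edgeR's adjusted p = 3.96e-05). E2F4, a repressor subunit of the DREAM complex (-0.48, adjusted p = 1.92e-04, edgeR), and the kinase AURKB (-0.37, adjusted p = 0.00245, edgeR) fell. FOXM1 (-0.31), the activator of the programme, fell too, and CDK1 rose, while CCNB2 (-0.03), TOP2A (0.09) and NEK2 (0.07) did not pass. With library size alone 3 rose and 5 fell, and with the expression level offset 2 rose and 6 fell. PLK1, at 0.05, had 29 of the 38 below it. The summed list measured 4925, 4668 and 4850 CPM in shRNH1 and 5734, 5479 and 5963 CPM in shControl, so PLK1 amounted to 6.49 ± 0.357% of that sum in shRNH1 and 5.27 ± 0.160% in shControl (SD, n = 3 each). The ratio of PLK1 to CCNB1 CPM was 1.84, 1.89 and 1.84 in shRNH1, against 1.29, 1.37 and 1.30 in shControl. CCNB1 was itself called lower, so this ratio carries its fall, as the sum carries that of CDC20. CCNB2 (-0.03) and TOP2A (0.09) lay near PLK1, so the ratio depends on the gene set under it. The ratio and the share rest on the contrast that was known when the family was chosen and are descriptions.

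PLK4 was set beside genes of centriole duplication. Of 30 tested, 3 rose and 1 fell, at a median of 0.002, and 13.3% were called, under the 27.6% of all genes. CCP110, which caps the growing centriole, rose to 11.6 ± 0.151 CPM in shRNH1, against 7.47 ± 1.45 CPM in shControl (SD, n = 3 each), a log2 fold change of 0.63 (with edgeR's adjusted p = 9.03e-04). USP28, a deubiquitinase that reports long mitosis or centrosome loss, rose by 0.39 (adjusted p = 0.00305, edgeR) and CEP44 by 0.59 (adjusted p = 0.00809, edgeR). CEP192, a scaffold that recruits PLK4, fell (-0.33, adjusted p = 0.0121, edgeR). CEP192 lost its call with library size alone (-0.22), without shRNH1 replicate 1 (-0.31) and without shControl replicate 2 (-0.30), and CEP44 with the offset (0.43). The core partners STIL (-0.18), SASS6 (0.16) and CEP152 (-0.26) did not pass. The list had 4 higher and 0 lower with library size alone and 2 higher and 3 lower with the expression level offset, so its balance of directions depended on the scaling.

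In the list of the G2 checkpoint and its recovery, a process in which PLK1 acts, 2 of 23 rose and 4 fell, at a median of 0.06. In all 26.1% were called, close to the 27.6% of all genes, of which 15.3% were higher and 12.3% lower. Besides CHEK2, USP28 and CDC25B, which are in the lists above, the phosphatase gene CDC25A fell to 81.0 ± 0.649 CPM in shRNH1, against 116 ± 5.48 CPM in shControl (log2 fold change -0.52; adjusted p = 6.04e-05, edgeR's quasi-likelihood test; SD, n = 3 each). WEE1 (0.11), PKMYT1 (0.02), CLSPN (-0.22) and CDC25C (0.15), which PLK1 acts on, did not pass. With library size alone 5 rose and 3 fell, and with the expression level offset 2 rose and 2 fell.

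**Figure D3:**
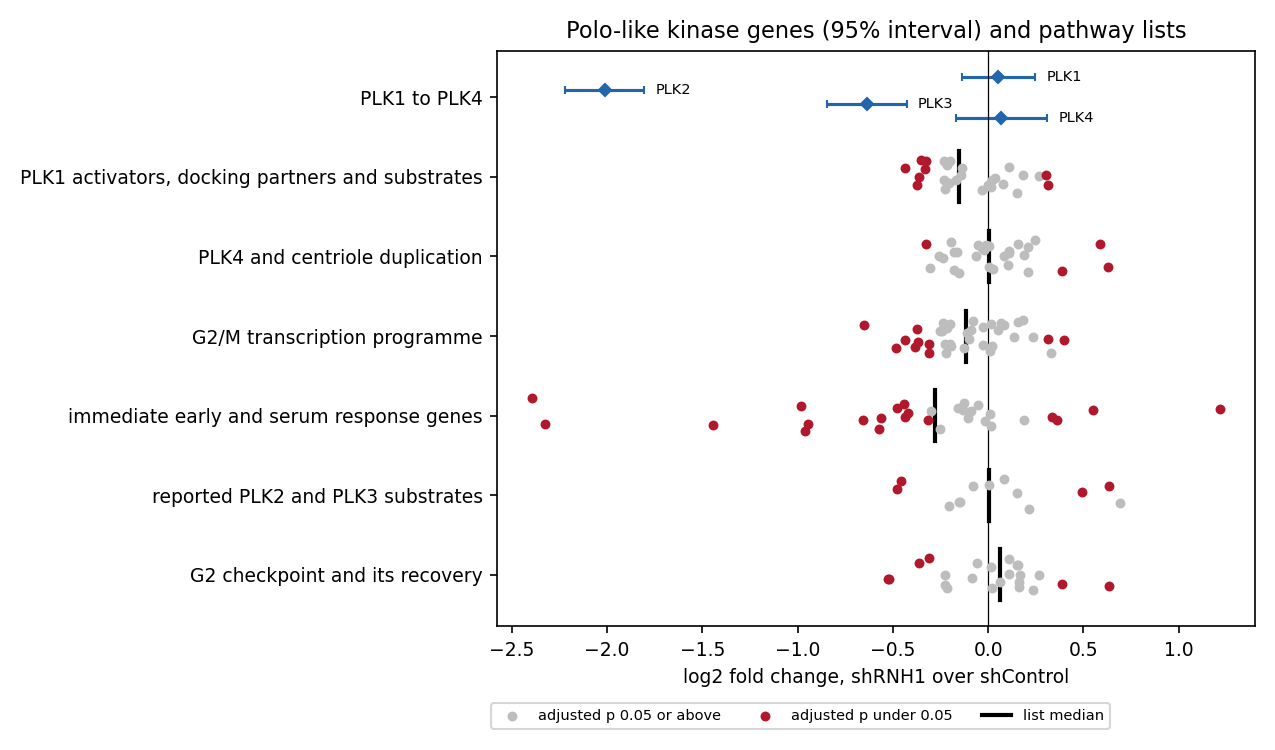
Log2 fold change of shRNH1 over shControl for the 4 kinase genes (blue, bars are 95% intervals) and for the tested members of the pathway lists described here (red, adjusted p under 0.05; grey, at or above it; black bar, list median). PLK2 at -2.01 lies beside the lowest early-response genes, while PLK1 and PLK4 lie near 0.

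The genes whose pattern over the 6 libraries was most like that of each member were sought among 9429 genes whose mean log2 CPM reached 3, by the root mean square difference of centred log2 CPM. The nearest to PLK2 were TGM2, a transglutaminase (0.0916), KCTD12 (0.102) and MFAP5, a microfibril protein (0.106), with log2 fold changes of -1.87, -2.01 and -2.04. The nearest to PLK3 were WWC1, a scaffold of the Hippo pathway (0.0419), the RNA editing enzyme gene ADARB1 (0.0454) and NBEAL2 (0.0496). For PLK1 they were the alanyl-tRNA synthetase gene AARS1 (0.0160), CMBL (0.0176) and the coatomer subunit gene COPG1 (0.0218). For PLK4 they were CUL9 (0.0280), ABCD4 (0.0414) and GCAWKR (0.0471). Within a difference of 0.1 lay 1510 genes for PLK1, 181 for PLK4, 152 for PLK3 and 1 for PLK2. The count for PLK2 restates its large fold change, which was already known. The likeness is a description, and for PLK2 and PLK3 it follows mostly the difference between the groups. PLK1 and PLK4 had log2 fold changes of 0.05 and 0.07, against SDs over the 6 libraries of 0.0815 and 0.135 log2 CPM. Their likeness therefore follows mostly the scatter between libraries.

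**Figure D4:**
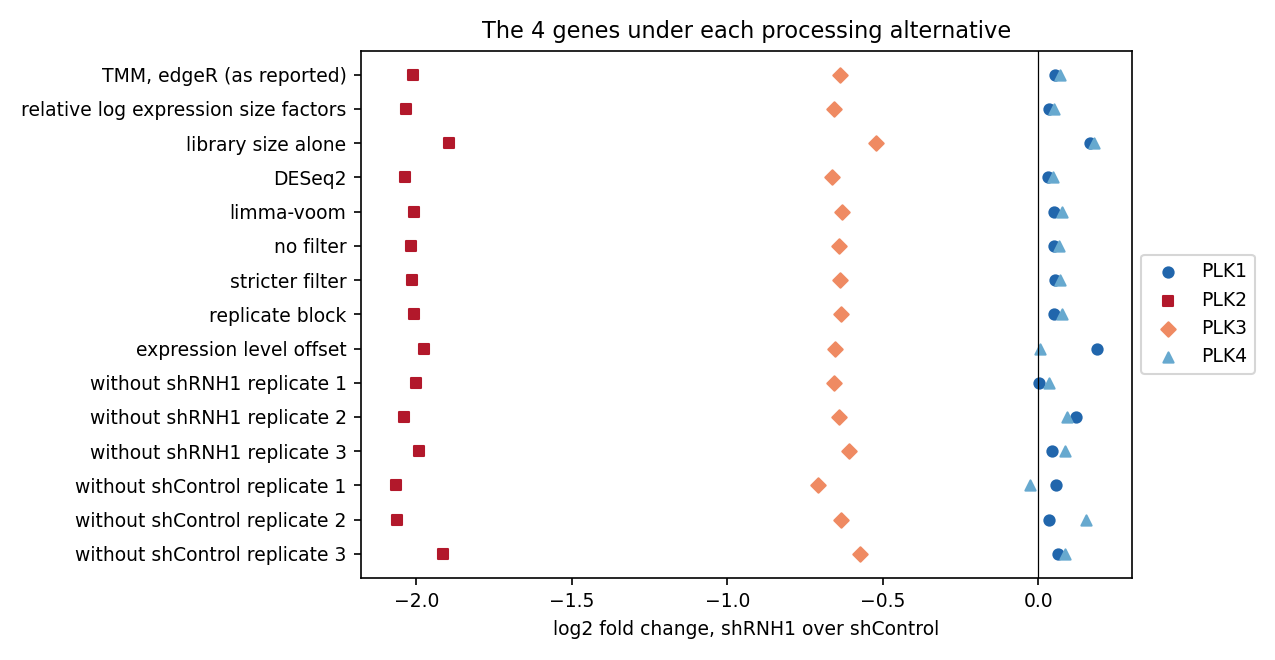
Log2 fold change of shRNH1 over shControl for the 4 genes under each way of processing, named on the vertical axis. PLK2 stays between -2.06 and -1.90 and PLK3 between -0.71 and -0.52, while PLK1 and PLK4 stay between -0.03 and 0.19.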

How the data were processed

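Poly(A) RNA of 6 libraries was sequenced, and the authors deposited raw counts per gene, whole numbers without normalisation. HISAT2, StringTie and DESeq2 with GRCh38 were used per the submitters' processing notes; for the counter, strand setting and annotation release the sources used here give nothing. Of the 62700 IDs, 42343 had a gene symbol and the rest are named by their ID. Positions and lengths came from GENCODE 29 (GRCh38), which held 58207 of the IDs, and promoters from RefSeq.

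Counts were tested with edgeR 4.0.16 (R 4.3.3; quasi-likelihood, TMM, filterByExpr, no covariate) with Benjamini-Hochberg adjustment over 19682 genes at 0.05. The script was also tested on simulated counts with known changes. Standard errors came from the F statistic. Intervals are 95% confidence intervals of the log2 fold change, made from its standard error, and those in percent of control are the same on the fold scale. Replicates are labelled biological, with no word on separate cultures, so the p-values cover only sample-to-sample spread, which may be technical. Replicates differed by more than sampling noise (chi-square of 5.90 to 18.5 per gene).

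The members and lists were chosen with earlier results of these data known. Named were the 4 members, PLK5, RNASEH1, RNH1, up to 4 called members per list with the smallest adjusted p, and the 3 nearest genes per member; other list members were named after their values were seen. Alternatives were library size alone, relative log expression factors, limma-voom (limma 3.58.1), DESeq2 1.42.0, no filter, a filter at CPM 1 in 3 libraries, a replicate block, an offset for expression level (spline of 5 degrees of freedom, MASS 7.3.60.0.1), each library left out and, for levels, other lengths. A planned permutation test of the level order is not given, since the levels hold the known contrast. Some list members and 1 list are not reported here.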

Additional observations from a re-analysis of the deposited data

How the results depend on the processing

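The calls of the 4 members were the same under all 14 alternatives, which is no sign of stability, since the members were chosen with this contrast known. Relative to TMM, library size alone put the median log2 fold change of all genes at 0.127, against 0.016, with 4065 genes higher and 1433 lower (73.9% higher, against 55.4%). PLK1 then stood at 0.17, PLK2 at -1.90 and PLK3 at -0.52, and PLK1 at 0.19 with the expression level offset. Leaving out single libraries gave 5 to 9 called partners of PLK1, against 8; the value of 5 was without shRNH1 replicate 3, and the cause was not tested. The mean log2 ratio of PLK2 to PLK3 over the 6 libraries was 0.89 without division by length, against 0.43 per kilobase of exon. Without that division the length ratio of the genes is left in. The 0.43 averages -0.25 in shRNH1 and 1.12 in shControl, so it shows no common order of the 2 genes. Other list counts stayed within 1.5 times. With the replicate block 5094 genes were called, against 5424, and PLK2 stood at -2.01 and PLK3 at -0.63; same-numbered libraries had deviations correlated at 0.0454, 0.0563 and -0.0489, so the numbers were not taken to pair them, and the third shRNH1 library correlated best with another number. PLK4 had 456 to 631 counts a library, and its shControl libraries varied with a coefficient of variation of 13.1%.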

Other observations

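The nearest tested genes on either side of each member in GENCODE 29 were looked up after the values of the members had been seen, and 2 of these 8 genes passed (25%, against 27.6% of all genes). DCTN5, a dynactin subunit gene 201 bases from the annotated PLK1 gene, rose to 90.7 CPM in shRNH1, against 54.8 CPM in shControl (log2 fold change 0.73, SE 0.0958; edgeR's quasi-likelihood test, adjusted p = 1.73e-06), whereas PLK1 itself stood at 0.05. PDE4D, a phosphodiesterase gene 509 kb from PLK2, rose by 0.63 (adjusted p = 1.49e-05, edgeR) where PLK2 was lower. BTBD19, 2.49 kb beyond PLK3, had a log2 fold change of -0.39 (SE 0.200) and MFSD8, 18.5 kb beyond PLK4, of 0.26 (SE 0.154), and neither passed (adjusted p = 0.154 and 0.224, edgeR). RBBP6, 847 kb away on the other side of PLK1 (0.24), and GPBP1, 1189 kb away on the other side of PLK2 (-0.003), did not pass either. Nor did RPS15AP11, 19.5 kb from PLK3 (0.02), or ENSG00000261668, 36.8 kb from PLK4 (-0.03).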
